A study of Mus musculus with 2 samples.

Results

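The genes described here are 6 members of the adenylate kinase family of the mouse, Ak1, Ak3, Ak4, Ak5, Ak7 and Ak8. Their probes were found by the gene symbol in the scanner files. They numbered 10 of 56605 probes that were not controls, and 6 of 37006 named targets. The family was chosen by the measured S180 minus DMSO difference of Ak4 on these same arrays, so that every such difference is a description with no test. Ak6 and Ak9 belong to the same family, were not among the 6, and are given for comparison.

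Total RNA of mouse cells was labelled with Cy3 and read on whole-genome expression arrays. One group was cells given the agent S180, with 1 array, and the other was cells given DMSO, the usual solvent control, also with 1 array. Strain, cell type, dose, time of exposure and the nature of S180 are not given in the labels. With a single array on each side, nothing was replicated, no p-value is given, and precision is limited by the count of arrays. The effect of the agent and the difference between a pair of cultures or preparations cannot be told apart.

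Adenylate kinases move a phosphate group between adenine nucleotides, turning ADP into ATP and AMP and back, and so couple the ATP level of a compartment to its AMP level. AMP in turn activates the AMP-activated protein kinase (AMPK), a sensor of energy shortage. The isoforms differ by place. Ak1 is cytosolic, and Ak3 and Ak4 are close relatives in the mitochondrial matrix. Ak5 is known from the brain, and Ak7 and Ak8 from cilia and flagella. Ak4 has little catalytic activity and is known as a gene that responds to low oxygen through HIF-1.

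The sequences that report on Ak4 were a pair of 60-base probes and the windows before its transcription starts. The probe that ends in a stop codon is shown first, since it lies apart from the brighter probe farther downstream. The stop codon TGA is in capitals, and the frame before it was open for 19 codons. The upstream probe of Ak5 and the single probe of Ak8 follow, each with 1 open reading frame and nothing in capitals.
Ak4 probe from base 972 of the transcript: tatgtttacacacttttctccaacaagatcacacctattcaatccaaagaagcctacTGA
Ak5 probe from base 620 of the transcript: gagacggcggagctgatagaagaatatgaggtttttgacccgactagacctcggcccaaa
Ak8 probe from base 1406 of the transcript: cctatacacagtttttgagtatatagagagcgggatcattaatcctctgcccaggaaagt

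The first Ak4 probe lies at chr4:101136213-101136272 on the plus strand (probe positions are on build mm9). The other lies at chr4:101139464-101139523 and begins at base 4223 of the same transcript. Their starts are 3251 bases apart both on the genome and in the transcript, so no intron lies between them. The Ak5 probe shown lies at chr3:152318849-152318908 on the minus strand and the Ak8 probe at chr2:28668519-28668578 on the plus strand.

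RefSeq gives 4 transcription starts for Ak4 on the plus strand of chromosome 4 (GRCm38.p6). The first 3 lie within 32 bases of each other. The 250 bases before each start were searched on both strands for the core letters of the binding motif of HIF-1, ACGTG and GCGTG. The windows before the first start and before the last are shown. Matches are in capitals.
Ak4 window 1, chr4:101419039-101419288: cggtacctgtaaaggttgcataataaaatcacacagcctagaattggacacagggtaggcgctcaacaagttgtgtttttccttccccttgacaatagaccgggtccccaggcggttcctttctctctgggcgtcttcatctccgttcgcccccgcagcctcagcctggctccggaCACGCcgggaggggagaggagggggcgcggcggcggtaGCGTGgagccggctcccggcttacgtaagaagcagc
Ak4 window 4, chr4:101419453-101419702: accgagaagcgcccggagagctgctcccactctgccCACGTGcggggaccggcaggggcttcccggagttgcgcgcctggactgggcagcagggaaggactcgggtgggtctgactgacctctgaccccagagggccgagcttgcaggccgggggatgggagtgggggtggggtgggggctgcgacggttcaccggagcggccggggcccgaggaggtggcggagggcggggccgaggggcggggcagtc

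The first Ak4 window held GCGTG on each strand, 31 and 69 bases before the start. The last window held the palindrome CACGTG, which reads ACGTG on both strands and so counts as a pair of overlapping matches. Such letters are common. Of 32851 RefSeq windows of 250 bases, 38.6% held ACGTG or GCGTG, and of the 210 genes with as many windows as Ak4 73.8% held it in at least 1. Among the 6 members 5 had a window. Ak3 and Ak8, with 1 window each, had no match, Ak7 had 3 matches of GCGTG, and Ak1 had a match in the third and in the fourth of its 4 windows. Outside the 6, the window of Ak6 held 4 matches of GCGTG and that of Ak9 held 1. A match is a string of letters and not a bound site, and the absence of one says only that these letters are not in that window.

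By the flag of the scanner software, 61.9% of the 59305 spots that were not controls stood well above background in S180 and 60.6% in DMSO, and none was saturated. Levels are log2 processed signals minus the 75th percentile of the array, and a difference is the S180 level minus the DMSO level. A gene was represented by its brightest probe and called measured if this passed the flag on both arrays. Of 37006 targets, 20750 (56.1%) were measured. Members have 1 spot per probe. The error of a single difference was therefore taken from 278 other probes with replicate spots. Its SD was 0.042 (log2) for bright genes, 0.073 for genes of middle signal, from 6 probes, and 0.268 for dim genes, from 10 probes, and it covers the array only. Differences of all measured genes had an SD of 0.286 and a median of 0.00. All 8 melanocyte markers looked up (Mitf, Tyr, Tyrp1, Dct, Pmel, Mlana, Sox10 and Mc1r) were measured on both arrays, with a summed signal before scaling of 822768 in S180 and 898675 in DMSO. After scaling, which allows for the lower 75th percentile of the S180 array (615 against 748), their median difference was 0.12. The labels name no cell type.

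Of the 6 members Ak1, Ak3, Ak4 and Ak5 were measured. Among these 4, Ak4 alone was higher in S180 by 2-fold or more, and 0 were lower by that much. Over all measured genes 0.588% were that much higher and 0.169% that much lower. At 3-fold the shares were 0.116% and 0.00964%, and Ak4 was again the 1 member that passed. Since the family was picked for Ak4, nothing is read from its count. Ak8 passed the flag in S180 alone, and Ak7 on neither array. Over all targets 2.6% passed in S180 alone and 40.2% on neither array.

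**Figure D1:**
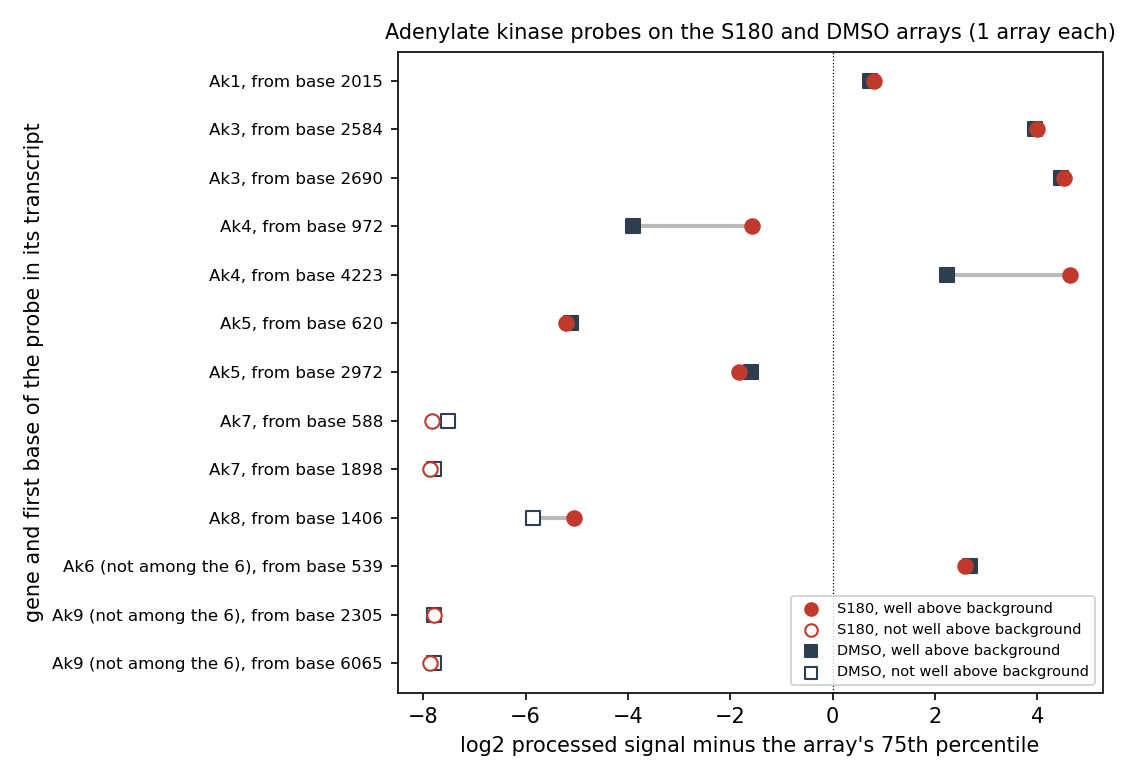
Level of each adenylate kinase probe (log2 processed signal minus the 75th percentile of the array) on the S180 array (circles) and the DMSO array (squares), with filled symbols for spots well above background. Both Ak4 probes lie to the right in S180, from -3.91 to -1.58 and from 2.24 to 4.65, while the symbols of Ak1, Ak3 and Ak6 nearly coincide.

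Ak4, the adenylate kinase of the mitochondrial matrix with little activity of its own, was higher in S180 on both of its probes. The probe from base 4223 had a processed signal of 15453 in S180 and 3523 in DMSO. The scaled difference was 2.41 (log2), or 5.33-fold, against a spot SD of 0.042. The probe at the stop codon had a signal of 206 in S180 and 49.8 in DMSO, a difference of 2.33 or 5.03-fold, against a spot SD of 0.268 at that signal. The S180 signal was thus the higher one at both positions of the transcript. RNA was taken from whole samples, in which fewer cells expressing a gene and less of its RNA per cell cannot be told apart. The probes differed from each other by 0.08, and the median gap between the 2 brightest probes of a gene was 0.12 over the 7398 genes with 2 or more measured probes.

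Among the 20750 measured genes the Ak4 difference was rank 4 from the highest. Of the genes with 2 or more measured probes, 38 had at least a 2-fold higher S180 value by the brightest, and 23 of those were so by both. Ranked by the lower of its 2 brightest probes, Ak4 stood at rank 2 of the 7398 genes. The genes with the difference nearest above were Adm2 at 5.62-fold, Frem2 at 5.85-fold and Kbtbd11 at 5.93-fold. Those nearest below were Adm, the gene of adrenomedullin, at 4.72-fold, Slc16a3, a lactate exporter, at 4.20-fold and Aire, a transcriptional regulator, at 4.01-fold, all higher in S180. The likeness is the gap between log2 differences over 2 arrays, 0.08 for Adm2 and 0.41 for Aire, and Frem2 rests on a DMSO signal of 25.9.

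**Figure D2:**
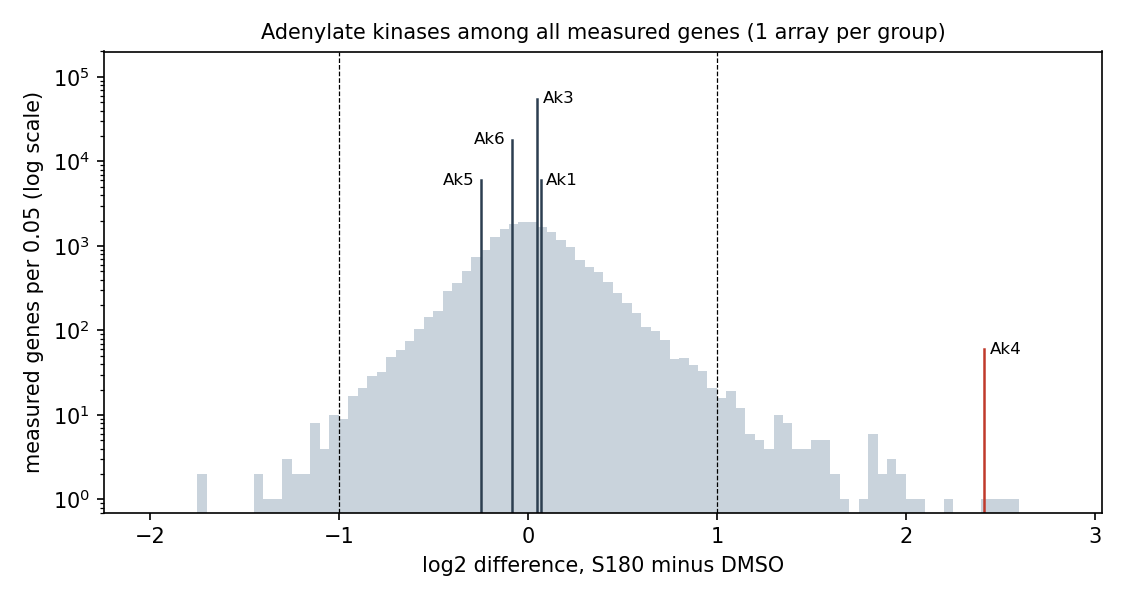
Number of measured genes by log2 difference, S180 minus DMSO, in steps of 0.05 on a log scale of counts, with lines at the values of the measured adenylate kinases (line heights carry no value) and dashed lines at 2-fold. Ak4 at 2.41 lies in the sparse upper tail, while Ak1, Ak3, Ak5 and Ak6 lie between -0.25 and 0.07.

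Ak3, the closest relative of Ak4 and the matrix enzyme that uses GTP, differed little between the arrays. Its probes lie at chr19:29095429-29095488 and chr19:29095323-29095382 on the minus strand. The brighter had a signal of 14066 in S180 and 16545 in DMSO, a scaled difference of 0.05, and the other had 9839 and 11662, a difference of 0.04. The raw signals were lower in S180, as the whole S180 array was dimmer, with a 75th percentile of 615 against 748. Both differences were about the size of the spot SD of 0.042. The Ak4 difference exceeded that of Ak3 by 2.37 (log2), or 5.16-fold, a contrast within the arrays that a single scaling factor cannot change.

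Ak1, the main cytosolic enzyme of muscle, brain and red cells, had 1 probe, at chr2:32490509-32490568. Its signal was 1075 in S180 and 1247 in DMSO, a difference of 0.07 against a spot SD of 0.073. Of all measured genes 76.8% lay at least as far from the median gene. The gap from Ak4 to Ak1 was 2.35. The differences of Ak1 and Ak3 were thus both near that of the median gene.

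Ak5, the isoform known from the brain, was the member with the lowest measured difference. Its brighter probe, at chr3:152125850-152125909, had a signal of 172 in S180 and 249 in DMSO, a difference of -0.25, or 1.19-fold lower. The probe from base 620 had 16.7 and 21.7, a difference of -0.10 with a spot SD of 0.268 at that signal. Both were lower in S180. The first exceeded its spot SD of 0.073, but 28.4% of measured genes lay at least as far from the median gene. The probes are 192999 bases apart on the genome and 2352 in the transcript, so introns lie between them.

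Ak7 and Ak8, the isoforms of the ciliary axoneme, were at or near background. The Ak7 probes had signals of 2.71 and 2.62 in S180 and of 4.07 and 3.36 in DMSO, none of them well above background, so no difference is given. The first probe matches a cDNA clone and lies at chr12:106976956-106977015. The second spans 1838 bases at chr12:107004924-107006761, more than its own 60 bases, so that it crosses an intron. The single Ak8 probe had a signal of 18.4 in S180, which was well above background, and 12.9 in DMSO, which was not. Against the lowest signal well above background on the DMSO array, 16.5, the Ak8 value in S180 was at least 1.36-fold higher after scaling. This bound includes the scaling offset between the arrays, 1.22-fold. It also rests on 1 spot per array at a signal where the spot SD was 0.268, so it is not firm. The lowest such signal on the S180 array was 13.1, so the DMSO signal of Ak8 would not have passed there either.

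Of 11 markers of motile cilia found on the arrays 4 were measured and 5 were above background on neither array. Dnah5, Tekt1 and Rsph4a, genes of the axoneme and its arms, had signals between 2.65 and 3.36. None of these was well above background, and they resemble those of the Ak9 probes, 2.63 to 3.37, so they are not levels of these genes. Spag6, with 5.10 in S180 and 5.17 in DMSO, and Hydin, with 10.1 and 12.2, were brighter than the Ak9 probes. They too were not well above background on either array. Foxj1, the regulator of ciliary genes, had 20.8 in S180 and 9.41 in DMSO, of which the first was well above background, and was at least 1.53-fold higher in S180. Cfap43, of the axoneme, passed in S180 alone with 16.6 against 16.6, at least 1.22-fold higher after scaling, which is the scaling offset itself. The spot SD at signals as dim as those of Foxj1 and Cfap43 was 0.268. The 4 measured markers were Ccdc39 at -0.27, Ccdc40 at -0.08, Tekt2 at -0.21 and Rsph1 at 0.08. The summed signal of the 11 before scaling was 782 in S180 and 1005 in DMSO, and the median scaled difference of the 4 was -0.15. Their part in the Ak8 value was not tested.

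Of the pair outside the 6, Ak6, a nuclear member, had signals of 3716 in S180 and 4791 in DMSO, a difference of -0.09. Both Ak9 probes were at background on both arrays. From the highest, the differences of these measured genes were ordered Ak4, Ak1, Ak3, Ak6 and Ak5. Ak1 and Ak3 differed by less than the spot SD of the dimmer of them, while Ak6 and Ak5 were each farther from their upper neighbour than that.

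The order of these 5 genes was the same under all 10 settings run, while the signs of Ak1 and Ak3 depended on the scaling. Among the main scaling, the median of measured genes, no scaling and the spike-in scale, every gene moved alike, so order and ranks were fixed. Keeping outlier spots left these genes nearly unchanged, and the deposited table nearly repeated quantile normalization. The order was thus checked only by quantile normalization, cyclic loess, normexp correction and the mean of all measured probes. Ak4 stood between 2.06 and 2.42 over the 10 settings, the main one included, and ranked 2 to 4 among all measured genes. Scaled on 8 spike-in transcripts, the difference of the median gene was -0.35, with Ak4 at 2.06, Ak1 at -0.29, Ak3 at -0.31 and Ak5 at -0.60. Ak1 and Ak3 were above 0 under 8 settings and below it without scaling and on the spike-in scale, which move every gene alike, whereas Ak5 and Ak6 were below 0 under all 10. On the spike-in scale 49 of all measured genes were at least 2-fold higher and 256 lower, against 122 and 35 with the main scaling.

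**Figure D3:**
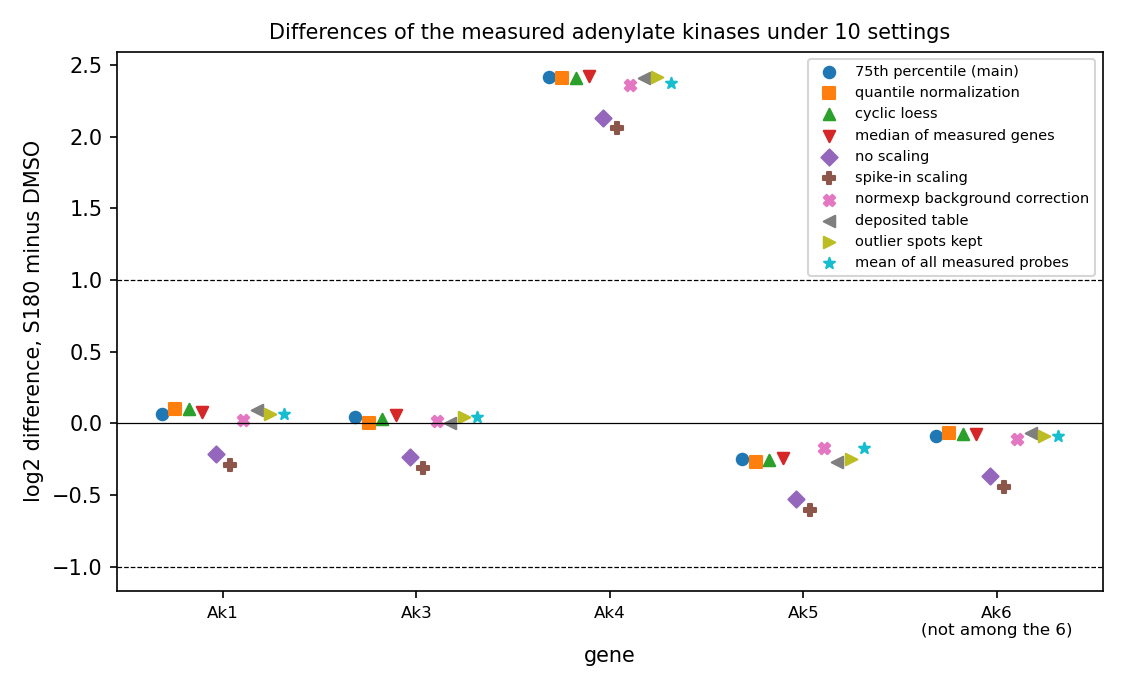
Log2 difference, S180 minus DMSO, of 5 measured adenylate kinases under 10 settings of scaling, background correction and choice of probe (1 symbol per setting), with dashed lines at 2-fold. Ak4 stays between 2.06 and 2.42, and the other genes stay between -0.60 and 0.10, lowest without scaling and on the spike-in scale.

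The genes around Ak4 on chromosome 4 were looked at next. By the RefSeq order the coding genes before it are Raver2 and Jak1, and those after it Dnajc6 and Leprot. Jak1, a cytokine receptor kinase, had signals of 9163 in S180 and 10444 in DMSO, a difference of 0.09. Leprot, of the leptin receptor locus, had 13214 and 15967, a difference of 0.01. The other pair was dim. Raver2, an RNA-binding protein, had 29.9 and 28.5, a difference of 0.35, and Dnajc6, the clathrin uncoating factor auxilin, had 38.9 and 32.1, a difference of 0.56. None of the 4 neighbours was 2-fold apart, a count from which nothing is read beside 0.588% of all measured genes higher and 0.169% lower. The dim pair rests on signals where the spot SD was 0.268.

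Genes of adenine nucleotide balance, Ak6 and Ak9 counted among them, were looked up for comparison. Of 56 such genes on the arrays 49 were measured, and 0 of them were at least 2-fold higher or lower, against 0.588% and 0.169% of all measured genes. At 1.5-fold 0 of the 49 were apart in either direction, against 3.08% of all measured genes higher and 1.71% lower. Nothing particular to these genes is read from the counts. Their median difference was -0.05, against 0.00 for all measured genes, and they ranged from -0.50 to 0.46.

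The nucleoside mono- and diphosphate kinases pass phosphate among other nucleotides. All 11 were measured, 2 lay above the median gene, and the list's median was -0.17. Nme3 had the largest difference, -0.37, with signals of 1002 in S180 and 1578 in DMSO. Creatine kinases buffer ATP through phosphocreatine. Ckmt1, the mitochondrial form, stood at 0.32, with 896 in S180 and 870 in DMSO, Ckb, the brain form, stood at 0.30, and Ckm and Ckmt2 of muscle were not well above background on either array.

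The AMPK list holds its subunits and the upstream kinases and scaffolds. All 13 were measured, between -0.18 and 0.18, with a median of -0.04, and 3 lay above the median gene. Cab39, the scaffold of the LKB1 complex, had the largest difference, 0.18, with signals of 10700 in S180 and 11448 in DMSO. A dimmer probe of Prkag2, a regulatory subunit singled out after its values were seen, gave -0.90 where the brightest gave -0.05.

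Enzymes of AMP and adenosine had 12 of 15 genes measured, 6 of them above the median gene, and a median of -0.01. Ampd3, which deaminates AMP, had the largest difference, 0.46, with signals of 476 in S180 and 420 in DMSO, and 0.18 on its other probe. The mitochondrial carriers and channels had 10 of 11 measured and a median of 0.01. Slc25a42, a carrier of coenzyme A and adenine nucleotides, stood lowest at -0.50, with signals of 354 in S180 and 607 in DMSO, and its other probe gave -1.06. The main ADP and ATP exchangers Slc25a4 and Slc25a5 stood at 0.14 and 0.04.

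**Figure D4:**
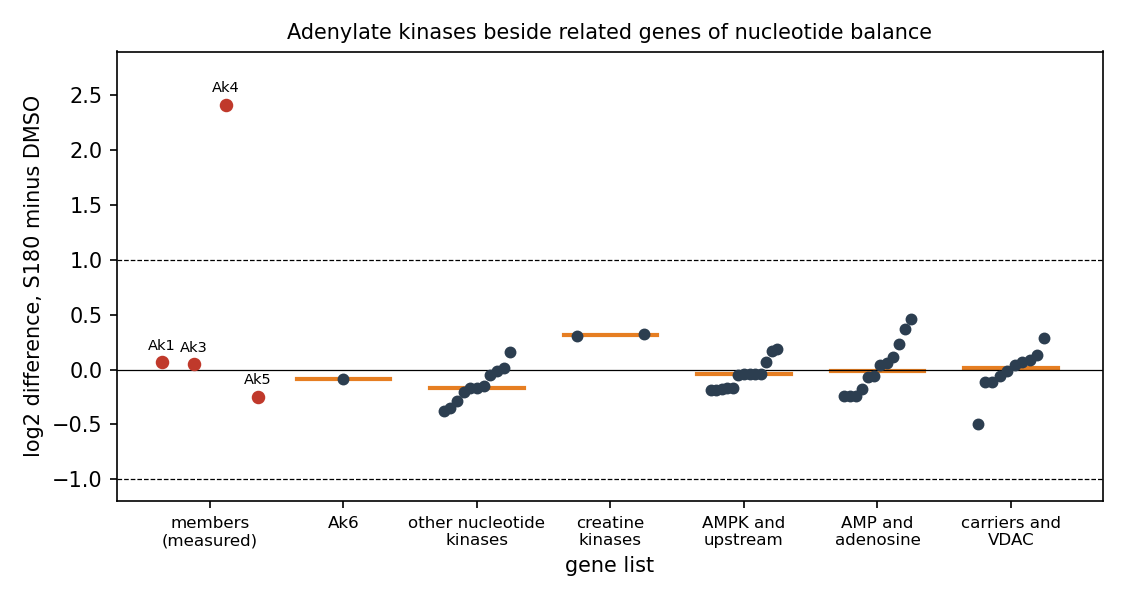
Log2 difference, S180 minus DMSO, of each measured gene (points) of the adenylate kinase members and of 6 lists of related genes, with the median of each list as a bar and dashed lines at 2-fold. Ak4 at 2.41 is the one point beyond 2-fold, and the 49 genes of the lists lie between -0.50 and 0.46.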

How the data were processed

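RNA of 1 S180 and 1 DMSO sample was hybridised to 1 array each, per the labels' protocols, and both arrays were read at the same scan time, per the file headers. The scanner tables hold processed intensities, deposited as the output of Agilent Feature Extraction 10.7.1.1: background-subtracted, detrended within the array, with surrogates for dim spots and no scaling between arrays, per the file headers. The same version stands in the submitters' processing notes. A further deposited table holds log2 values for both samples, and how these were made is not stated in the labels. Each column followed its own array, with both medians at 5.27, and 99.8% of the S180 and 99.7% of the DMSO values lay within 0.01 of quantile-normalised log2 signals. It served as an alternative. It is not centred by gene, and no part of its scale or direction remained unknown.

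Control spots and spots with outlier flags (120 on the S180 array, 195 on the DMSO array) were left out, the log2 signals of a probe were averaged, and the 75th percentile of the array was subtracted. Genes were named through RefSeq accessions of GRCm38.p6, which matched 32994 probes, members by the symbol in the files. A lower bound compares the brighter array with the higher of the dim probe's signal and the lowest well-above-background signal there. Alternatives were other scalings, limma 3.58.1 normexp (offset 50), other probe and spot choices, and thresholds of 1.5-fold and 3-fold.

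Members, lists and rules were chosen with earlier results of these data known. The rule named all members, further genes of the family, not all of which are reported here, the largest difference in each list and any list gene at least 1.5-fold apart, the 3 genes on either side of Ak4 by difference, leaving out predicted and clone names, and the 2 coding genes on either side of it by position. Of the marker lists for cells in which members may be abundant, those of melanocytes and motile cilia are given in the report and the others in the closing section.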

Additional observations from a re-analysis of the deposited data

How the results depend on the processing

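The Ak4 difference was 2.13 without scaling, 2.06 on the spike-in scale and 2.36 with normexp correction, against 2.41, so it was at least 2-fold in each, and it moved by less than the spot SD with cyclic loess, quantile normalization, scaling on the median of measured genes, the deposited table, outlier spots kept and the mean of both probes. Without scaling Ak1, Ak3 and Ak5 stood at -0.21, -0.23 and -0.53. Normexp took Ak5 to -0.17. The number of members at least 2-fold higher was 1 and at least 2-fold lower 0 at every threshold and scaling run, and the related genes gave 0 in both directions, also at 1.5-fold. Over all measured genes 122 were higher and 35 lower, against 62 and 173 without scaling, 49 and 256 on the spike-in scale, 74 and 7 with normexp, 639 and 355 at 1.5-fold and 24 and 2 at 3-fold. Without scaling and on the spike-in scale every gene moved alike, with the median gene at -0.28 and -0.35. At 1.5-fold and 3-fold only the threshold differed. Why the S180 array was dimmer, and why normexp gave fewer genes, was not tested. Members measured numbered 4, 5 if 1 array was enough or with the looser significance flag, and 6 with no filter. No paired analysis was possible because each group holds 1 array, and leaving out a replicate would leave no group. Signal over background limits Ak7, Ak8 and the dimmer probe of Ak5.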

Other observations

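Markers of cells in which members of the family may be abundant were partly above background. Sums are of signals before scaling, S180 first, and differences are scaled medians over the measured markers. Of 8 neuronal markers 4 were measured (Syt1 at -0.15, Snap25 at 0.26, Map2 at -0.13 and Gad1 at -0.07). The sums over the 8 were 2654 and 2761, with a difference of -0.10. Nefl, a neurofilament subunit of the same list, was well above background in S180 alone, with 30.7 against 3.49, and at least 2.27-fold higher there. Of 8 skeletal muscle markers 3 were measured (Myh4 at -0.06, Tnnt3 at 0.47 and Mylpf at -0.15), with sums of 801 and 1045 and a difference of -0.06. Acta1, skeletal actin, was well above background in S180 alone, with 17.4 against 11.5, at least 1.28-fold higher. The bounds of Nefl and Acta1 both include the scaling offset between the arrays, 1.22-fold. At such dim signals the spot SD was 0.268, so the Acta1 bound is not firm. Of 7 leukocyte markers 5 were measured, with sums of 6408 and 7002 and a difference of 0.06. Of 5 fibroblast markers 4 were measured (Col1a1 at -0.02, Col1a2 at -0.83, Pdgfra at -0.48 and Pdgfrb at -0.24). The sums over the 5 were 1522 and 2560, with a difference of -0.36. Of these sums Col1a2 alone had 640 and 1378. Of 4 epithelial markers 2 were measured, with 49.1 and 89.5 and a difference of -0.69. Of 4 endothelial markers 1 was measured, with sums of 89.4 and 123 and a difference of -0.25. The lowest differences among all measured markers of these lists were Epcam at -0.89, Lyz2 at -0.84 and Col1a2 at -0.83, of which Epcam and Lyz2 were dim. The part of these markers in the values of Ak1 and Ak5 was not tested.

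Slc25a25, an ATP-Mg carrier singled out after its values were seen, gave -0.02 on its brightest probe and up to 0.83 over its 4 measured probes. Nme6 gave -0.17 on its brightest probe and down to -0.73 over 4 probes.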
